A study of Mus musculus with 5 samples.

Results

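The genes examined were 8 members of the Bcl2 family, which decide between survival and death of a cell at its mitochondria: the survival genes Bcl2, Bcl2l1 and Mcl1, the effector genes Bax and Bak1, and the genes Bad, Bid and Bcl2l11 of the BH3-only class. They were taken from the array table by gene symbol, and no value entered that rule. The list itself was chosen with earlier results of these data known. Of the 8 genes, 7 were matched to at least 1 probe set by the platform annotation, through 13 probe sets, among 8251 genes with a single symbol in all. Bax had no probe set under its symbol and was not analysed here. The samples were 5 preparations of progenitors of dendritic cells from mouse marrow, labelled as positive for the cytokine receptor FLT3 and for CD11b, an integrin chain of myeloid cells. Total RNA of each was hybridised to 1 single-colour array. The samples carry the numbers 1 to 5 and form 1 group, and the labels give no strain, genotype, age, treatment or pooling, so there was no comparison between conditions. Nothing in the labels says that the samples came from separate animals, so the spread between them may be technical in part.

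BCL2, BCL-XL (encoded by Bcl2l1) and MCL1 bind and hold back their death-promoting relatives on the outer mitochondrial membrane. When BAX or BAK is released, it forms pores through which cytochrome c escapes and starts the caspase cascade. The BH3-only proteins report stress: BIM (encoded by Bcl2l11) rises when growth factors are withdrawn, BAD is kept inactive by phosphorylation under growth factor signalling, and BID is cut by a caspase downstream of death receptors. In blood-forming tissue, MCL1 is known for keeping stem cells, progenitors and granulocytes alive, BCL-XL for late red cell precursors, and BCL2 for lymphocytes.

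Signals are array intensities after each array was scaled to a common median of 103.4. A position above or below that median gives a rank among the signals of an array and shows neither presence nor absence of a transcript. Brightness also depends on the probes, so levels were not compared between probe sets. Of the 7 measured genes, 5 had their brightest probe set above the median on all 5 arrays (71.4%), against 44.5% of all named genes. These were Mcl1, Bcl2l1, Bak1, Bid and Bcl2l11, while Bcl2 and Bad were above it on part of the arrays only. Counted by probe set, 5 of 13 were above the median on every array (38.5%), close to the 36.7% of all 12422 non-control probe sets. The first count keeps the brightest probe set of a gene and the second keeps all. As deposited, sample 1 stood apart in scale, with an array median of 392 against 66.5 to 81.2 in the others. Each signal was compared with the median of its own array, so that scale did not enter the comparison. Without sample 1 the count of genes was again 5, and without sample 3 it was 6, with Bad added. With the same probe sets, leaving a sample out can only keep or raise the count, so this is no check of it. Correlations of log2 signal between pairs of arrays ran from 0.792 to 0.905, and no arrays were identical. They cover the 6211 probe sets whose mean log2 signal lay above the median of all.

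**Figure D1:**
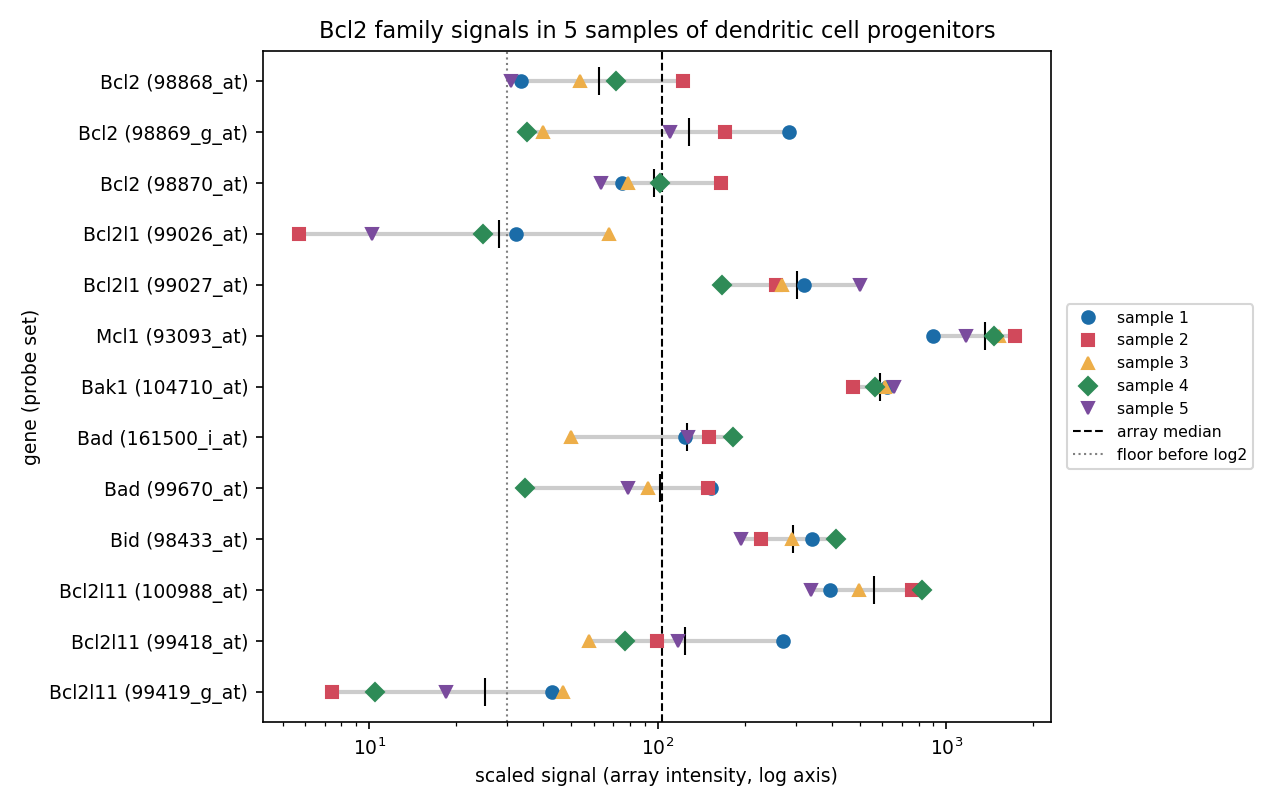
Scaled signal (log axis) of the 13 probe sets of the Bcl2 family in 5 samples; coloured symbols are samples, the vertical tick is the mean, the dashed line the common array median of 103.4 and the dotted line the floor of 30.0 applied before log2. The points of Mcl1, Bak1, Bid, 1 probe set of Bcl2l1 and 1 of Bcl2l11 all lie right of the dashed line; rows are different probes and are not to be ranked against each other.

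Among the survival genes, Mcl1 had high signal in every sample. Its probe set gave 900.0, 1728, 1524, 1457 and 1165 in samples 1 to 5, a mean of 1355 ± 325 (SD, n = 5). It ranked between percentiles 91.5 and 95.5 of the arrays, and its highest value, in sample 2, was 1.92-fold its lowest, in sample 1. The 552 probe sets with a mean within 0.5 log2 units of that of Mcl1 lay at a median of -0.13, 0.048, 0.021, 0.27 and -0.18 from their own means in samples 1 to 5. Mcl1 lay at -0.55, 0.39, 0.21, 0.14 and -0.18, so that it was at that median in sample 5 and below it in samples 1 and 4. The spread of the 552 was not set against these values.

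Bcl2l1 was represented by 2 probe sets, above and below the array median. The probe set 99027_at gave 322, 256, 269, 167 and 502 in samples 1 to 5 (303 ± 124, SD, n = 5), above the median in every sample and highest in sample 5. The probe set 99026_at gave 32.2, 5.69, 67.5, 24.7 and 10.2 and was above the median in none. On 3 of the 5 arrays 99026_at was at the floor, so the order of samples on it was not compared.

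Bcl2 itself was above the array median in some samples only. Its probe set 98869_g_at gave 285, 171, 39.8, 35.3 and 110.4 in samples 1 to 5 (128 ± 104, SD, n = 5), above the median in samples 1, 2 and 5. The probe set 98868_at gave 33.6, 122, 53.7, 71.7 and 30.9, and 98870_at gave 74.96, 165, 78.9, 101 and 63.5, both above the median in sample 2 only. All 3 probe sets are annotated to the same source sequence, yet only in sample 2 did all of them exceed the median, and sample 1 was the highest on 98869_g_at and below the mean on the other two. B cells, a type known for BCL2, were represented by 5 marker genes, of which 1, Ighm, was above the median on all arrays. Cd79a, a chain of the B cell receptor, had signals of 265, 28.6, 16.7, 123 and 24.4 and was highest in sample 1, as was 98869_g_at. The other B cell markers were highest elsewhere, Ms4a1 and Ighm in sample 2 and Cd79b and Pax5 in sample 5. Cd79b, the partner chain of Cd79a, had 47.8, 82.9, 33.8, 117 and 233. The summed signal of the B cell markers ran from 693 to 1152, and its part in the Bcl2 values was not tested.

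Of the pore-forming effectors, Bak1 was the member that differed least between samples. Its signals were 623, 473, 611, 567 and 656 in samples 1 to 5 (586 ± 70.7, SD, n = 5), between percentiles 81.7 and 88.1 of the arrays. The highest sample was 1.39-fold the lowest. The SD of 0.18 on the log2 scale was at percentile 3.46 of the 6211 probe sets whose mean log2 signal lay above the median of all probe sets.

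Among the BH3-only genes, Bid was above the array median throughout, with 342, 227, 291, 414 and 193 in samples 1 to 5 (293 ± 88.4, SD, n = 5). Its highest sample, sample 4, was 2.14-fold its lowest, sample 5. Bad was close to the array median. Its probe set 161500_i_at gave 124, 149.8, 49.9, 182 and 127 (127 ± 48.7, SD, n = 5), below the median in sample 3 only, and 99670_at gave 152, 149.5, 92.1, 34.5 and 78.5 (a mean of 101, with an SD of 0.88 on the log2 scale, n = 5). Sample 4 was thus the highest sample on the first and the lowest on the second, so no order of samples can be given for Bad.

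Bcl2l11, the gene of BIM, had the brightest of its probe sets, 100988_at, at 394, 758, 499, 821 and 339 in samples 1 to 5 (562 ± 216, SD, n = 5). Samples 2 and 4 were the highest, and the highest was 2.42-fold the lowest. The other probe sets gave a different picture. On 99418_at the signals were 271, 98.9, 57.7, 77.1 and 118, highest in sample 1, and on 99419_g_at they were 42.8, 7.40, 46.8, 10.4 and 18.5, below the median on all arrays. The gene lay above the limit through 100988_at alone.

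**Figure D2:**
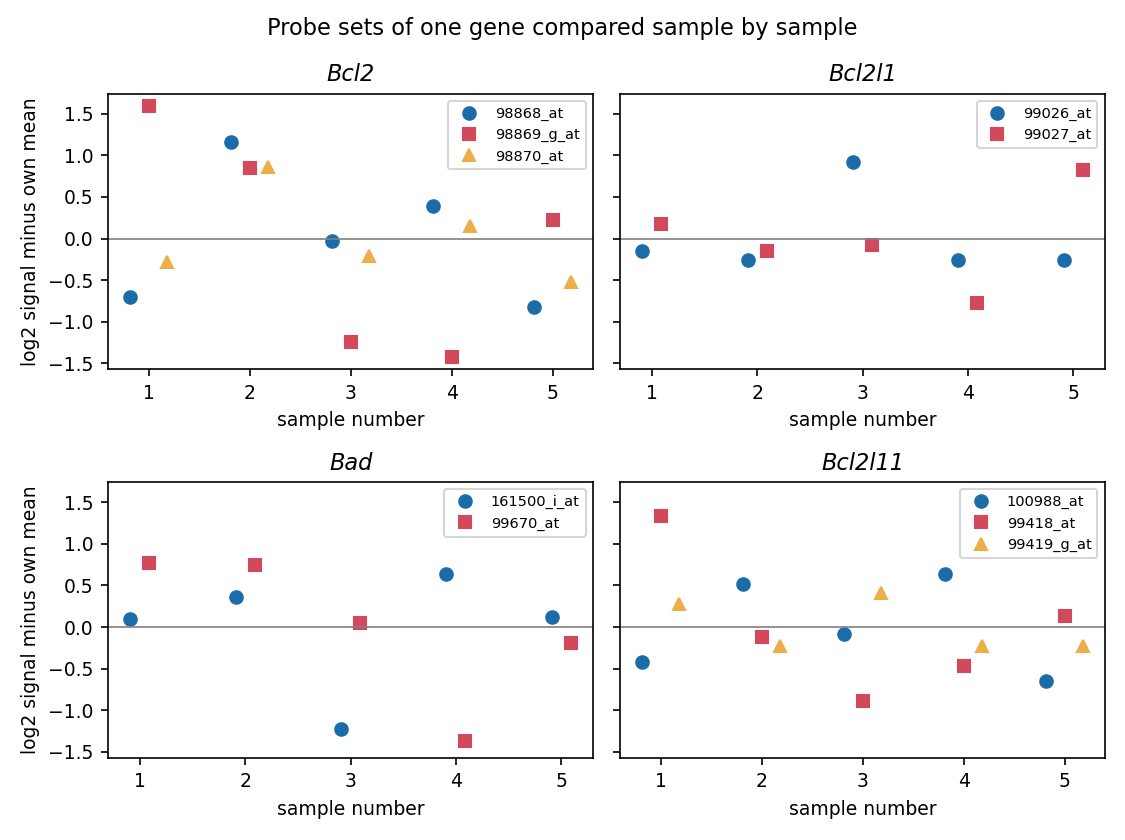
Log2 signal of each probe set minus its own mean over 5 samples, after the floor, for the 4 genes with several probe sets; each symbol is a probe set. Bad in sample 4 (0.64 against -1.37) and Bcl2 in sample 1 (1.59 against -0.70) show probe sets of 1 gene on opposite sides of their means.

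The 4 genes with several probe sets gave 8 pairs of probe sets of the same gene. In 3 pairs a probe set, 99026_at of Bcl2l1 or 99419_g_at of Bcl2l11, was at the floor on 3 of 5 arrays, where values have no order, and these were not compared. In 4 of the other 5 pairs the probe sets lay on the same side of their own means in 2 or fewer samples and differed in their highest sample. These were the Bad pair, the Bcl2l11 probe sets 100988_at and 99418_at, and 98869_g_at of Bcl2 against each of its other probe sets, with root mean square differences between deviations of 1.10 to 1.498 log2 units. The Bcl2 probe sets 98868_at and 98870_at lay on the same side in 5 of 5 samples, with sample 2 highest on both and a difference of 0.30, so among the Bcl2 probe sets the brightest was the one that differed. The ratio of 3' to 5' signal of control transcripts, a measure of how far the labelled RNA reached from the 3' end, differed between arrays. For the actin control it was 1.08, 3.003, 4.15, 5.20 and 2.55 in samples 1 to 5, for the Gapdh control 0.896, 1.06, 4.52, 3.42 and 2.01, and for the transferrin receptor control 3.14, 3.77, 16.7, 8.63 and 5.16. The table gives no probe positions, and the part of RNA length in these disagreements was not tested.

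Growth factor withdrawal is known to raise Bcl2l11 through FOXO3, a transcription factor that binds close to the letters GTAAACA and that is held inactive by AKT signalling below receptors such as FLT3. The promoter windows of the 8 genes in RefSeq (GRCm38.p6), 12 in all, each from 250 bases before to 50 after a start, were searched for GTAAACA on either strand. It was found in 1 of the 12, a window of Bcl2l11, where it begins 227 bases before the start, and in 3.65% of all 32851 windows. The letters GAGGAAG, close to those bound by the myeloid factor PU.1, were in 3 of the 12 windows against 13.6% of all, and GGGCGG, bound by SP1-type factors, in 7 of 12 against 35.7%. A match is a run of letters and shows no binding. The Bcl2l11 window (chr2:128125788-128126087, plus strand) is printed because of this match, shown in capitals, and the window of the survival gene Mcl1 (chr3:95658471-95658770, plus strand) is set beside it as one without the match.
Bcl2l11: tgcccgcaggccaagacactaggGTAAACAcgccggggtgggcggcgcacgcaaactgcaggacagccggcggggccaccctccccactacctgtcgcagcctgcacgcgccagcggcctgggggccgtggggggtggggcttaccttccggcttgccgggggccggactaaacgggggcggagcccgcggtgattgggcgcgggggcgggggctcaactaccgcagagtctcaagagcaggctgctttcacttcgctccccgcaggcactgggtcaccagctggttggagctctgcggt
Mcl1: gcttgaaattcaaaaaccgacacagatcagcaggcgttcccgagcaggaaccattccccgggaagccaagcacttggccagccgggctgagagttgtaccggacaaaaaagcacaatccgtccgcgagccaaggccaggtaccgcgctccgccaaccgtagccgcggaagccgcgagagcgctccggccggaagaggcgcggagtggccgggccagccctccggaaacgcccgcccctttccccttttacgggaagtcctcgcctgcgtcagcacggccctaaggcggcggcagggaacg

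The signals of Foxo3 and Flt3 stood beside those of Bcl2l11 in the same samples. Foxo3 had 469, 871, 567, 771 and 595 in samples 1 to 5 (655 ± 163, SD, n = 5). Flt3 had 571, 1212, 353, 1268 and 318 (745 ± 463, SD, n = 5) on its brighter probe set. Samples 2 and 4 were the highest for both genes and for the Bcl2l11 probe set 100988_at, a likeness that was seen in the values and then described. The Bcl2l11 probe set 99418_at did not share it, with -0.11 and -0.47 from its own mean in samples 2 and 4 and its highest signal in sample 1. Transcript signals do not show the activity of FOXO3 or of AKT signalling, and their part in the Bcl2l11 values was not tested. The second Flt3 probe set gave 255, 377, 265, 376 and 345, with samples 2 and 4 highest again but sample 5 near them. By the root mean square difference between centred log2 signals, Foxo3 ranked 416th and Flt3 1546th in likeness to Bcl2l11 among 4819 named genes, so many genes were more alike. For Mcl1, Foxo3 ranked 185th and Flt3 3977th, so Flt3 was among the genes less like Mcl1. The 10 neutrophil markers had their highest summed signal, 256430, in sample 4 and their lowest, 79352, in sample 1. Of these markers 7 were highest in sample 4, and 3, the protease genes Elane, Prtn3 and Ctsg, in sample 1. The largest parts of the sum in sample 4 were S100a8, S100a9 and Ngp, at 82007, 57705 and 54586. They were at 9540, 12172 and 7093 in sample 1, their lowest. Mpo, Elane, Prtn3, Ltf, Camp and Lcn2 were lowest in sample 2, and Ctsg in sample 3. The part of the neutrophil markers in these values was not tested.

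**Figure D3:**
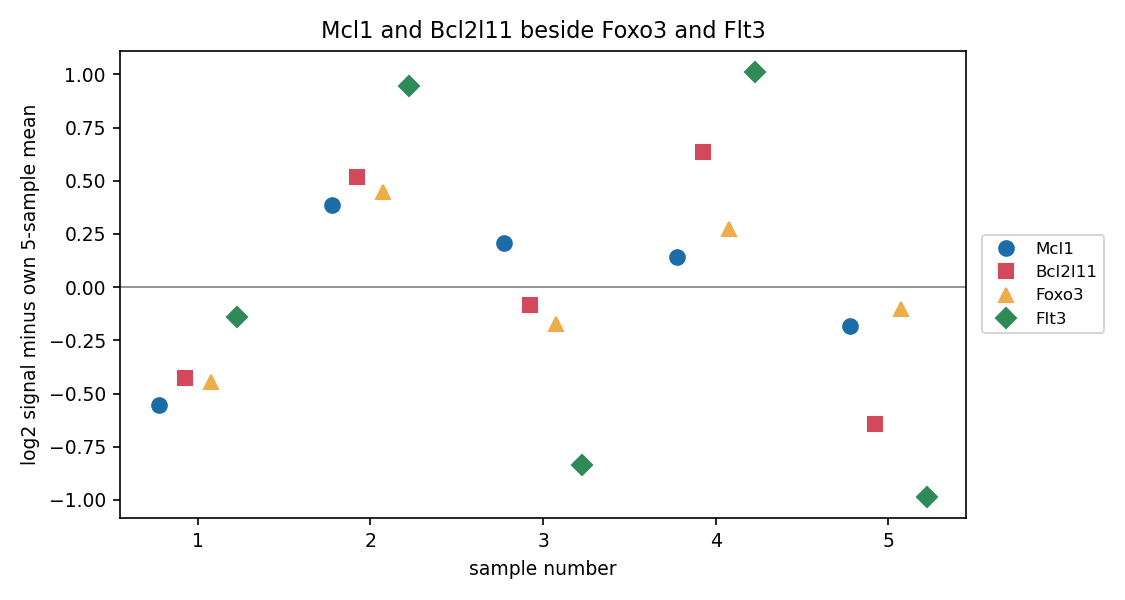
Log2 signal minus its own 5-sample mean for Mcl1, Bcl2l11 (100988_at), Foxo3 and Flt3 (brighter probe set) by sample number; the line marks no deviation. Samples 2 and 4 lie above the line for all 4 genes, and sample 1 lies below it for all 4. The medians over all 6211 tested probe sets lie on the same sides, at 0.069 in sample 2, 0.18 in sample 4 and -0.037 in sample 1.

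The SDs of the family between samples ran from percentile 3.46 of all tested probe sets for Bak1 to percentile 97.6 for Bcl2 (98869_g_at). Of the 13 probe sets, 9 had a mean log2 signal above the median of all and entered the test; the other 4, those of Bcl2 (98868_at), Bcl2l1 (99026_at), Bad (99670_at) and Bcl2l11 (99419_g_at), did not. The median SD of the 9 was 0.56 log2 units, against 0.49 for all 6211 probe sets with the same filter, whose quartiles were 0.34 and 0.68. The limma variance test called 0 of the 9, and 0 of all 6211 (0%), at an adjusted p of 0.05; at an unadjusted p under 0.05 it had 0 of the 9 and 303 of 6211. The adjusted p of the 9 ran from 0.964 for Bcl2 (98869_g_at, SD 1.31) to 0.995. With no call among all 6211, the test does not tell members from other probe sets, and it does not show that the samples were alike.

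**Figure D4:**
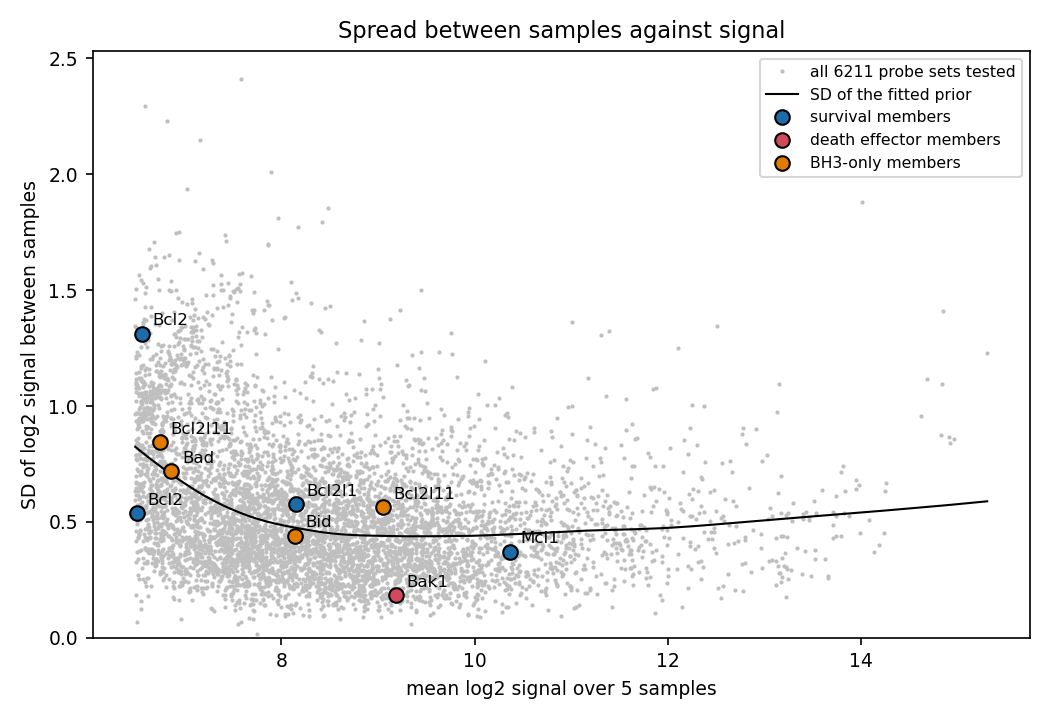
SD of log2 signal between the 5 samples against mean log2 signal for 6211 probe sets (grey) with the 9 tested probe sets of the Bcl2 family marked by class; the line is the SD of the distribution fitted by limma. The Bcl2 probe set 98869_g_at lies highest of the 9 at 1.31 and Bak1 lowest at 0.18.

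Survival and death genes were also set against each other within each sample. With the brightest probe set of each gene, the 3 survival genes lay at a median of 0.18, 0.39, -0.080, -0.77 and 0.22 log2 units from their own means in samples 1 to 5. The 4 death genes lay at 0.095, 0.032, -0.021, 0.59 and -0.21. The same medians over all 6211 probe sets were -0.037, 0.069, -0.0010, 0.18 and -0.080. Sample 4 thus had the lowest median of the survival genes and the highest of the death genes. Of the survival genes, Bcl2l1 and Bcl2 were low there at -0.77 and -1.42, while Mcl1 lay at 0.14. Both medians of sample 4 turned sign with the dimmest probe set of each gene, to 0.14 for the survival genes and -0.13 for the death genes, and with every probe set counted they were -0.056 and -0.038. The 3' to 5' ratio was highest in sample 4 for the actin control and in sample 3 for the Gapdh and transferrin receptor controls. The summed signal of the neutrophil markers was highest in sample 4, with Elane, Prtn3 and Ctsg highest in sample 1. The part of either in these medians was not tested.

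The ratio of Bcl2l11 to Mcl1 is of interest because BIM is bound by MCL1. On the log2 scale, relative to its own mean, this ratio was 0.13, 0.13, -0.29, 0.49 and -0.46 in samples 1 to 5, highest in sample 4 and lowest in sample 5. The ratio of Bak1, whose protein MCL1 also holds, to Mcl1 was 0.65, -0.69, -0.14, -0.18 and 0.35, highest in sample 1. The ratio of Bid to Mcl1 was 0.83, -0.71, -0.16, 0.41 and -0.37, also highest in sample 1. The ratio of Bcl2l11 to Bcl2l1 had the widest range of the 4 ratios computed, at -0.60, 0.67, -0.0036, 1.40 and -1.46, highest in sample 4 and lowest in sample 5. These ratios rest on 1 probe set per gene and array and carry no test. Bcl2l11 was taken from 100988_at, which was highest in sample 4. On 99418_at it deviated from its own mean by 1.34 in sample 1, its highest, and by -0.47 in sample 4. The order of samples given for the ratios of Bcl2l11 therefore holds for 100988_at only.

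For each gene with a mean above the median, the named genes with the most similar deviations over the 5 samples were sought among 4819. For Mcl1 these were Lpp, Atf6 and Abce1, with root mean square differences of 0.035, 0.057 and 0.060 log2 units, against a median of 0.49 over all candidates. For Bcl2l11 they were Dnajc13, Zfp62 and Rasa3 at 0.085 to 0.088 (median of all 0.57), for Bid Siva1, Stmn1 and Nop10 at 0.070 to 0.11, and for Bak1 Egln1, B3gat3 and Arap3 at 0.046 to 0.065. Bcl2l1 was nearest to Wbp11, Rusc1 and Tomm40 at 0.12 to 0.15, Bad to Prdx4, Il17ra and Aak1 at 0.16 to 0.20, and Bcl2 to Repin1, H2-D4 and Serpinf2 at 0.28 to 0.37. With 5 samples and 4819 candidates, close profiles are found for nearly any gene, and no relation is read from them.

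Other genes of the family were partly measured. Of 5 further survival genes, 2 were matched: Bcl2l2, which encodes BCL-W, was above the median on all arrays with 214, 394, 312, 274 and 211 in samples 1 to 5 (281 ± 76.1, SD, n = 5), and Bcl2l10 on 1 array. The 3 probe sets of the Bcl2a1 genes carry the symbols of several near-identical genes and were not named. Of 11 further death genes or relatives, 6 were matched and 3 were above the median on all arrays (50%, against 44.5% of all named genes). These were Becn1, an autophagy protein with a BH3 motif, at 1428 ± 286, Bcl2l13, a mitochondrial relative, at 468 ± 46.3, and Bnip3, a mitochondrial protein induced by low oxygen, at 182 ± 41.2 (SD, n = 5 each). The effector gene Bok was above it on 2 arrays, with 83.5, 42.0, 6.59, 119.6 and 163, and the BH3-only genes Bik and Hrk on none. Bbc3, Pmaip1, Bmf, Bnip3l and Bcl2l14 had no probe set of their own and were not analysed here.

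Of 7 measured genes of the apoptosome and caspase list, 6 were above the median on all arrays (85.7%, against 44.5% of all named genes). The list mixes genes that act after the mitochondrial step with Casp8, its adaptor gene Fadd and Casp2, which act at or before it. Cycs, cytochrome c, had 138, 326, 460.5, 281 and 292 in samples 1 to 5, lowest in sample 1. Apaf1, the scaffold of the apoptosome, had 551 ± 87.2, and Casp9, the caspase it activates, 567 ± 266 on its brightest of 4 probe sets (SD, n = 5 each). Casp9 was above the median on every array on that probe set alone. Casp6 was above it on 1 array, and Casp8, the caspase that cuts BID, had 467, 159, 263, 278 and 205.

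Of 11 mitochondrial factors and inhibitors of apoptosis, all measured, 7 were above the median on every array (63.6%, against 44.5% of all named genes). This count takes the brightest probe set. Of the 4 genes with several probe sets, 2 were above it on every array with some of them only. Htra2, a protease released from mitochondria, had 690.2 ± 130.2, Aifm1, the apoptosis-inducing factor, 1219 ± 198 (SD, n = 5 each), Endog was above the median on 2 arrays and Diablo, which blocks inhibitor proteins, on none.

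Of 15 upstream regulators, 14 were measured and 12 were above the median on all arrays (85.7%, against 44.5% of all named genes). The brightest probe set was again counted. Of the 6 genes with several probe sets, 3 were above it on every array with some of them only. Mdm2, the ligase for p53, had 409.8 ± 158, Akt1, a kinase that phosphorylates BAD and FOXO3, 592 ± 143, and Pim1, a kinase induced by cytokines, 1593 ± 316 (SD, n = 5 each). Trp53 was not matched.

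All 8 survival receptors of myeloid progenitors were above the median on every array by their brightest probe set (100%, against 44.5% of all named genes). A second probe set of Csf1r was above it on 4 arrays. Kit, the receptor of stem cell factor, had 184 ± 35.1, Csf1r, the M-CSF receptor, 498 ± 297, and Csf2ra, a chain of the GM-CSF receptor, 521 ± 171 (SD, n = 5 each). The variance test called 0 genes in each of these lists, with Csf2rb, the common beta chain, at the lowest unadjusted p of 0.0172 and a limma adjusted p of 0.947. Its signals were 626, 202, 152, 373 and 968 in samples 1 to 5. That gene was singled out after its values were seen.

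The arrays bore on the label as follows. Flt3 and Itgam, the genes of the markers in the label, were above the median on all arrays. Of the 8 gate and progenitor genes, which include Flt3 and Itgam, 5 were above it on all arrays (62.5%, against 44.5% of all named genes). Cd34 was above it on 3 arrays, and Irf8 and Cx3cr1 on 4 each. All 10 genes of the neutrophil granule list were above the median on every array, with a summed signal of 79352, 169364, 126099, 256430 and 169258 in samples 1 to 5. Elane, Prtn3 and Ctsg were highest in sample 1, where S100a8, S100a9 and Ngp were lowest. The sum is therefore no measure of a single cell type. The summed signal of the gate list ran from 2137 to 4308. Above the median on every array were 0 of 6 markers of T and NK cells, 1 of 5 of B cells and 0 of 4 of red cells. The same held for 1 of 7 markers of mature dendritic cells and 2 of 6 of stroma. A bulk sample does not tell fewer cells of a type from less RNA per cell, so the family's signals cannot be assigned to one cell type in them.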

How the data were processed

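Total RNA of 5 samples of 1 group was measured on 1 array each. The authors deposited linear intensity values for 12488 probe sets in each sample; the software and scaling behind them are not given in the sources used here. Deposited medians were 392 in sample 1 and 66.5 to 81.2 in the others. No depth applies to arrays; the number of samples limits the precision.

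Without the 66 control probe sets, arrays were scaled to a shared median of 103.4. A floor of 30.0, the 25th percentile after scaling, was set and log2 taken. Of 12422 probe sets, 10833 had 1 gene symbol in the platform annotation, 396 had several, so that no gene was named, and 1193 had no entry; the 13 member probe sets matched RefSeq genes by gene ID with 0 changed symbols. A gene was represented by the brightest of its probe sets by mean log2 signal. Variances were tested across 6211 probe sets with limma 3.58.1 in R 4.3.3, robustly and with a trend on mean signal, with Benjamini-Hochberg adjustment. The procedure was also run on simulated data in which most probe sets had the same SD. The real SDs differed widely, so that run does not show what the test could call here. Named were all members, all measured genes of the further family lists, the first 4 measured genes of each other list, list genes with an outlying sample, and the 3 nearest genes of each member. Genes named beside these, such as B cell markers, Casp8, Csf2rb and second probe sets, were picked with their values in view. The members and lists were chosen with earlier results of these data known. Figures used matplotlib 3.10.9. Alternatives were quantile normalization, unscaled deposited values, other limits, other choices of probe set, a floor of 1, no filter, a non-robust fit and each sample left out.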

Additional observations from a re-analysis of the deposited data

Results flagged for a closer look

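Dixon's ratio of the gap at the highest or lowest sample to the range of log2 signal was computed for 61 probe sets, those of the family and the brightest of each pathway gene, and 3 exceeded the 95% value of 0.71 for 5 samples; about 1 in 20 is flagged where nothing differs. Of the 13 probe sets of the Bcl2 family, 1 exceeded it. On the Bcl2l1 probe set 99026_at, sample 3 stood above the others with a ratio of 0.914; its signal there was 67.5, still under the array median, and 3 of the other samples were at the floor, so the ratio rests on values that have no order. On the Hrk probe set, sample 1 stood above the others with a ratio of 0.856 at a signal of 70.8, also under the median, with 3 samples at the floor. On the probe set of Il3ra, a chain of the interleukin receptor of early myeloid cells, sample 3 stood below the others with a ratio of 0.757, at 147 against 222 to 254 in the other samples.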

How the results depend on the processing

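The count of 5 of 7 members above the array median on every array was also 5 with the values as deposited, with quantile normalization and under a 40th percentile limit, and 5 to 6 with each sample left out. It was 7 where 3 of 5 arrays sufficed. Scaling and quantile normalization keep the order of signals within an array, so with the same probe sets they could not change this count. A lower limit, fewer arrays required or a sample left out could only keep or raise it. These settings are therefore no check of the count. The limit at the 75th percentile and the dimmest probe set of each gene could lower it, and each left 3. The median SD of 0.56 was 1.31 in the values as deposited, where sample 1 keeps its higher scale and all probe sets had 1.14, and ran from 0.49 to 0.61 with each sample left out. The variance test called 0 members and 0 probe sets in all under every alternative run, with 0 members at an unadjusted p under 0.05 and the lowest member adjusted p from 0.650 to 0.967; all probe sets had 0 to 341 at an unadjusted p under 0.05, 0 of them without the filter. As deposited, the survival genes deviated by 2.10 in sample 1, -0.12 in sample 2 and -1.41 in sample 4, and the death genes by 2.02, -0.48, -0.45, -0.045 and -0.56 in samples 1 to 5. With the dimmest probe set of each gene the survival genes were at -0.55, 0.14 and -0.25 in samples 1, 4 and 5 and the death genes at -0.13 in sample 4; with every probe set, sample 4 was at -0.056 and -0.038. The cause of the shifts between probe sets was not tested. No paired analysis was possible because there is 1 group. Signals near the floor of 30.0 limit what 99026_at and 99419_g_at can show.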
